A study of Rattus norvegicus with 13 samples.

Results

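The genes described are 7 enzyme genes of the cornea, namely the aldehyde dehydrogenases Aldh3a1, Aldh1a1, Aldh1a2, Aldh2, Aldh3a2 and Aldh3b1 and the transketolase gene Tkt. They were taken by symbol from the day 3 gene tables, where all 7 were found among 28357 genes and all 7 passed the filter on low counts that 14762 genes passed. RNA came from the peripheral cornea and limboscleral tissue of male wild-type Lewis rats aged 2 months, and all groups modelled limbal stem cell deficiency, in which a cornea without its epithelial stem cells is invaded by vessels. The treated rats received systemic spironolactone, an antagonist of the mineralocorticoid receptor, at 25 mg/kg/day by subcutaneous injection (n = 3 libraries), and the control rats received a vehicle of 90% olive oil and 10% DMSO (n = 3). The comparison asked which transcripts differed between the treatments at day 3. Nothing in the labels ties each library to an animal of its own, so the p-values reflect only how far these libraries spread, which may be technical.

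Mammalian corneas hold a few enzymes in amounts far beyond what catalysis needs, and these are called corneal or enzyme crystallins by analogy with the lens. ALDH3A1 is the best known of them; it oxidizes aldehydes formed by lipid peroxidation and absorbs ultraviolet light, and transketolase, a thiamine-dependent enzyme of the pentose phosphate pathway, is another. ALDH1A1 and ALDH1A2 oxidize retinaldehyde to retinoic acid, ALDH2 clears acetaldehyde in mitochondria, and ALDH3A2 oxidizes long-chain fatty aldehydes.

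Of the 7 genes, Aldh3a1, Tkt and Aldh2 had higher average values with spironolactone, by 33.8%, 23.8% and 13.2%, and the fitted differences of the other 4 were -3.1% for Aldh1a1, -3.34% for Aldh1a2, -5.25% for Aldh3a2 and -12.1% for Aldh3b1. None passed edgeR's quasi-likelihood test at an adjusted p of 0.05, and neither did any of the 14762 genes tested (0.00%). A positive log2 fold change was found for 3 of the 7 and for 48.4% of all genes. At an unadjusted p under 0.05 there were 3 of the 7, all higher, where 12.2% of all genes tested were higher and 10.4% lower. Of the 7, Aldh3a1 and Aldh2 were called by DESeq2, both higher. Over 14425 genes its calls came to 9.25% (5.81% higher, 3.44% lower), whereas limma-voom made 0 calls. The median log2 fold change was -0.05 over the 7 genes and -0.01 over all genes tested.

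**Figure D1:**
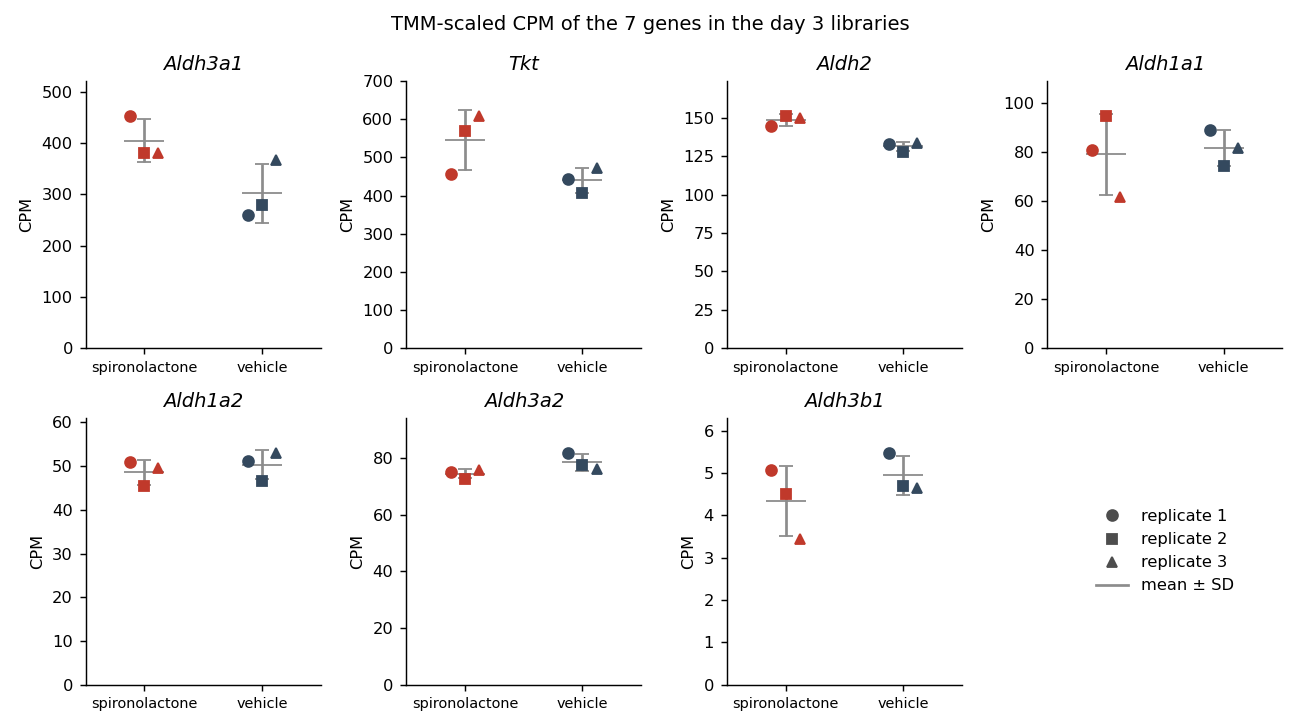
Each panel gives a gene's TMM-scaled CPM (counts per 1000000 reads; y axes start at 0) in the 3 spironolactone and 3 vehicle libraries of day 3, with the mean and SD in grey. Points of Aldh3a1 and Aldh2 are higher with spironolactone without overlap, those of Aldh3a2 are lower by a narrow margin, and those of the other 4 genes overlap.

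Totals of estimated counts were 18.2 to 25.3 M with spironolactone and 22.1 to 23.5 M with vehicle. The label cornea was checked against marker genes: Krt5 and Krt14, keratins of basal stratified epithelium, averaged 6957 and 5319 TPM with spironolactone against 3936 and 3213 TPM with vehicle. The cornea-specific keratin gene Krt12 averaged only 10.2 TPM with spironolactone and 8.63 TPM with vehicle. Summed over 14 corneal epithelium markers, levels ran from 16056 to 18615 TPM with spironolactone and from 9992 to 13255 TPM with vehicle. Most of that sum came from Krt5 and Krt14, which as keratins of stratified epithelium do not mark the cornea alone. The conjunctival keratin genes Krt13 and Krt4, at 9311 and 4391 TPM with spironolactone and 5463 and 2555 TPM with vehicle, exceeded Krt12 by far. Skeletal muscle markers (11 matched) summed to 198 to 357 TPM with spironolactone and 679 to 1546 TPM with vehicle. Neutrophil and macrophage markers summed to 1118 to 1442 TPM with spironolactone and 1461 to 1760 TPM with vehicle, and blood endothelium markers to 228 to 283 TPM with spironolactone and 297 to 423 TPM with vehicle. Retina markers summed to 3533, 4224 and 730 TPM in spironolactone replicates 1 to 3 and to 5064 to 5699 TPM with vehicle. They were lower in every spironolactone library, and spironolactone replicate 3 stood apart by its low value. Lens markers summed to 101.3 to 124.1 TPM with spironolactone and to 131, 196 and 1066 TPM in vehicle replicates 1 to 3. They too were lower in every spironolactone library, and vehicle replicate 3 stood apart by its high value. In such bulk samples fewer cells of a type and less RNA per cell cannot be told apart.

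The levels of the 7 genes relative to each other can be compared only per length, for which the deposited TPM (transcripts per 1000000, scaled by effective length) were used. Tkt was the most abundant, with 420 ± 60.7 TPM with spironolactone and 353 ± 23.2 TPM with vehicle (SD, n = 3 each), which placed it at 298 and 354 in the order of all genes by mean TPM. Aldh3a1 came second with 375 ± 38.5 TPM with spironolactone and 292 ± 52.0 TPM with vehicle, at places 342 and 420. The ranges of the pair overlapped with spironolactone (351 to 465 TPM for Tkt, 350 to 420 TPM for Aldh3a1) and with vehicle (328 to 373 TPM for Tkt, 254 to 351 TPM for Aldh3a1). Within single libraries, Tkt was above Aldh3a1 in every vehicle library and in spironolactone replicates 2 and 3, but not in spironolactone replicate 1.

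Aldh2 followed at 128 ± 3.78 TPM with spironolactone and 118 ± 2.49 TPM with vehicle, below every value of the first pair and above every value of the next of the 7. Aldh1a1 had 57.2 ± 12.5 TPM with spironolactone and 61.5 ± 5.76 TPM with vehicle. Aldh3a2 had 39.4 ± 0.55 TPM with spironolactone and 43.3 ± 2.02 TPM with vehicle. For Aldh1a2 the values were 34.2 ± 1.73 TPM with spironolactone and 36.8 ± 2.16 TPM with vehicle. The ranges of neighbours among these 3 did not overlap in either treatment. Aldh3b1, which encodes an enzyme for lipid-derived aldehydes, was lowest at 3.77 ± 0.728 TPM with spironolactone and 4.47 ± 0.464 TPM with vehicle. The same order of the 7 genes held in both treatments.

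Aldh3a1 transcripts were 42.2%, 38.0% and 39.5% of the summed TPM of the 18 Aldh genes listed in the files in spironolactone replicates 1 to 3, against 31.0%, 32.9% and 39.2% in vehicle replicates 1 to 3. The groups overlapped, since vehicle replicate 3 lay between spironolactone replicates 2 and 3. The sum over the 18 genes was 885 to 995 TPM with spironolactone and 819 to 895 TPM with vehicle. Tkt exceeded Aldh3a1 in 5 of the 6 libraries, the exception being spironolactone replicate 1 with a ratio of 0.836; the other ratios were 1.24 and 1.33 with spironolactone and 1.41, 1.21 and 1.06 with vehicle.

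**Figure D2:**
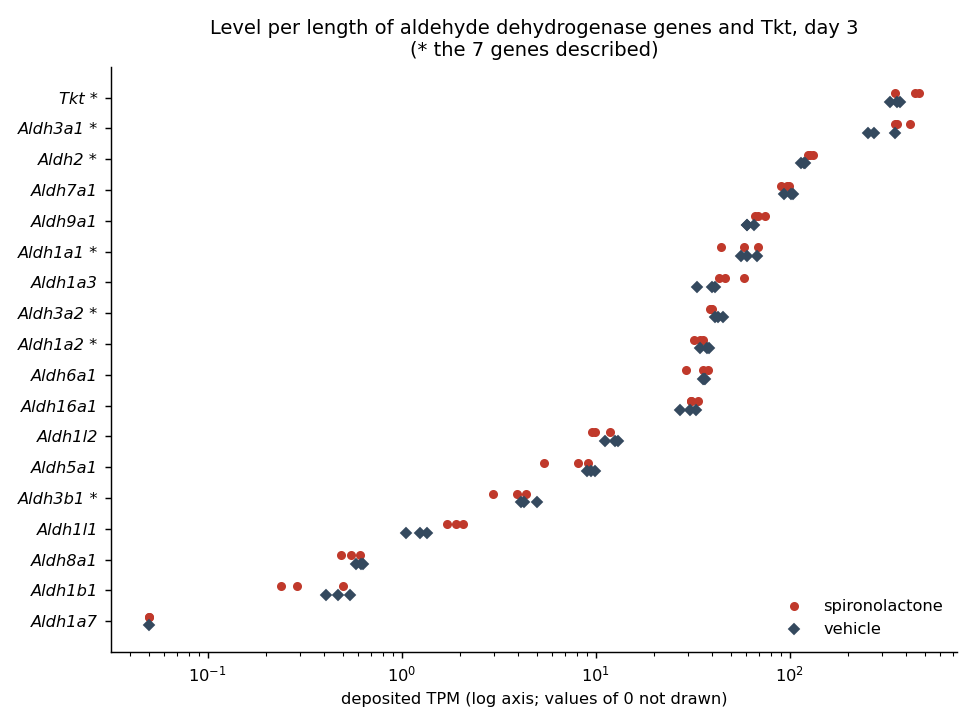
Deposited TPM on a log axis for the aldehyde dehydrogenase genes matched in the files and for Tkt, with 3 spironolactone (circles) and 3 vehicle libraries (diamonds) per gene. Tkt and Aldh3a1 lie together at the top, above Aldh2 near 120 TPM, and Aldh3b1 lies under 5.1 TPM.

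Aldh3a1 had 452.8, 380.0 and 379.8 CPM in spironolactone replicates 1 to 3, against 259.6, 279.1 and 367.7 CPM in vehicle replicates 1 to 3. All spironolactone values lay above all vehicle values, but the gap between the groups was 12.1 CPM and rested on vehicle replicate 3, the highest of its group by far. The log2 fold change was 0.42 (SE 0.14, adjusted p = 0.162 by edgeR), and 18.1% of all genes tested had one at least as large in absolute terms. By DESeq2 it was also 0.42, with an adjusted p of 0.0372. Without vehicle replicate 3 the log2 fold change was 0.60 with an adjusted p of 0.0294, in a fit that called 5.27% of genes. Without the replicates 3 of both treatments, which stand apart by lens and retina markers, it was 0.63 with an adjusted p of 0.0215, and 7.02% of genes were called. Both fits leave out the highest vehicle value, which by itself widens the difference. With any other single library left out, the log2 fold change was 0.327 to 0.463 and the adjusted p 0.203 to 0.410 by edgeR. On the TPM scale the groups overlapped, since spironolactone replicate 3 with 350 TPM was just under vehicle replicate 3 with 351 TPM.

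The epithelium markers differed between the same libraries. Relative to the vehicle mean, the median log2 level of the 14 markers was 0.61, 0.59 and 0.49 in spironolactone replicates 1 to 3 and -0.14, -0.04 and 0.20 in vehicle replicates 1 to 3, so vehicle replicate 3 was the highest of its group for the markers as well. Markers of keratocytes, stromal cells that also hold such enzymes, summed to 5544 to 5719 TPM with spironolactone and 5759 to 6105 TPM with vehicle. Their sum was thus lower in every spironolactone library, and their median log2 fold change was -0.09. An unadjusted p under 0.05 was found for 0 of 10, where 12.2% of all genes tested were higher and 10.4% lower. The part of cell makeup in the Aldh3a1 values was not tested.

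**Figure D3:**
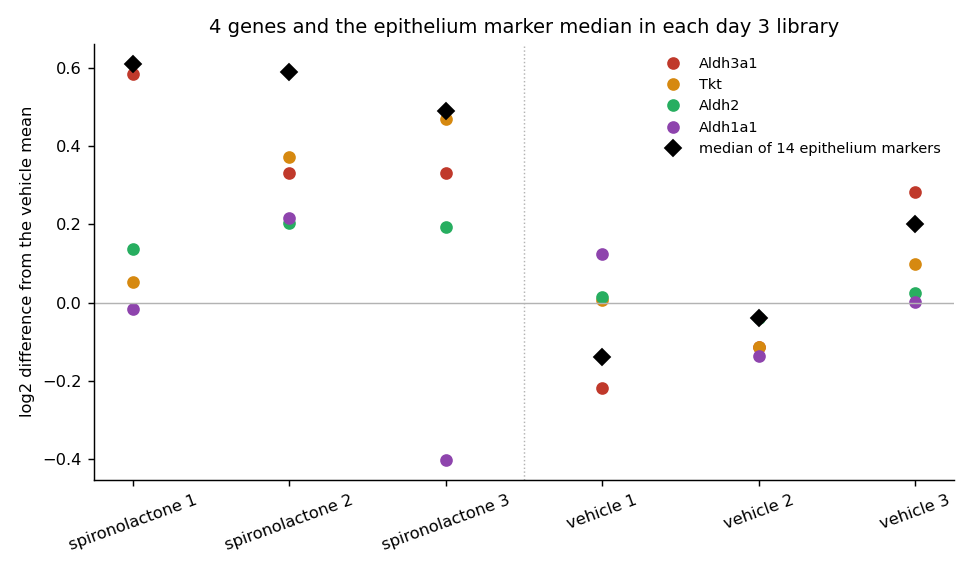
Log2 difference of CPM from the vehicle mean for Aldh3a1, Tkt, Aldh2 and Aldh1a1 in each of the 6 day 3 libraries, with the median of the 14 epithelium markers as black diamonds. Spironolactone replicate 1 is the highest for Aldh3a1 and the lowest of its group for Tkt, and Aldh1a1 is lowest in spironolactone replicate 3.

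Tkt had 456.7, 570.0 and 609.1 CPM in spironolactone replicates 1 to 3, against 442.6, 407.0 and 471.5 CPM in vehicle replicates 1 to 3. The groups overlapped: spironolactone replicate 1 lay below vehicle replicate 3, and the other spironolactone libraries lay above all vehicle libraries. The log2 fold change was 0.31 (SE 0.11, adjusted p = 0.181 by edgeR and 0.0792 by DESeq2). Spironolactone replicate 1 thus held the lowest Tkt and the highest Aldh3a1 of its group. Without spironolactone replicate 1 the log2 fold change of Tkt was 0.42 (adjusted p = 0.102), and without spironolactone replicate 3 it was 0.22 (adjusted p = 0.301).

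Aldh2 varied little between replicates. It had 144.5, 151.3 and 150.1 CPM in spironolactone replicates 1 to 3, against 132.7, 127.9 and 133.5 CPM in vehicle replicates 1 to 3, so that the groups did not overlap on this scale or in TPM. Its coefficient of variation was 2.43% with spironolactone and 2.3% with vehicle, where that of Aldh3a1 was 10.4% with spironolactone and 19.1% with vehicle. The summed epithelium markers given above, higher in every spironolactone library, stand beside the values of Aldh2 and Tkt too, and their part was not tested. The log2 fold change was small, at 0.18 (SE 0.047), with an adjusted p of 0.100 by edgeR and 0.0362 by DESeq2. Of the 7 genes, 3 had groups that did not overlap in CPM (Aldh3a1, Aldh2 and Aldh3a2), where 32.0% of all genes tested did (16.0% higher and 16.1% lower). In TPM there were 2 of 7 (Aldh2 and Aldh3a2), against 32.9% of all genes (9.86% higher and 23.1% lower).

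Aldh3a2, which lies next to Aldh3a1 on chromosome 10 in the RefSeq gene order, had no higher values with spironolactone. It had 74.9, 72.7 and 75.7 CPM in spironolactone replicates 1 to 3, against 81.9, 77.5 and 76.2 CPM in vehicle replicates 1 to 3. The groups were apart by 0.516 CPM alone, and the fit gave -0.08 (log2; SE 0.051, adjusted p = 0.387). The ratio of Aldh3a1 to Aldh3a2 in TPM, a ratio chosen after the values were seen, was 10.6, 9.18 and 8.75 in the spironolactone libraries and 5.58, 6.33 and 8.46 in the vehicle libraries.

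The retinaldehyde dehydrogenase genes Aldh1a1 and Aldh1a2 showed no detectable difference. Aldh1a1 had 80.9, 94.9 and 61.9 CPM in spironolactone replicates 1 to 3, against 89.1, 74.4 and 81.8 CPM in vehicle replicates 1 to 3. The spironolactone libraries held both the highest and the lowest value, and the log2 fold change was -0.05 (SE 0.16, adjusted p = 0.881). The lowest value was in spironolactone replicate 3, the library with few retina transcripts; without it the log2 fold change was 0.10 (adjusted p = 0.588). The part of retinal tissue in this value was not tested.

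Aldh1a2 had 50.9, 45.4 and 49.6 CPM in spironolactone replicates 1 to 3, against 51.1, 46.7 and 53.1 CPM in vehicle replicates 1 to 3. Its groups overlapped, and the log2 fold change, -0.05, was within its SE of 0.072 (adjusted p = 0.705). Aldh3b1 rested on 69 to 112 counts per spironolactone library and 105 to 132 counts per vehicle library, the fewest of the 7. It had 5.07, 4.51 and 3.45 CPM in spironolactone replicates 1 to 3, against 5.48, 4.7 and 4.64 CPM in vehicle replicates 1 to 3. These overlapped, and the log2 fold change was -0.19, close to its SE of 0.18 (adjusted p = 0.546). The SE of Aldh3b1 and Aldh1a1 were the largest of the 7 in this fit, and about as large as the log2 fold change of Aldh2.

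**Figure D4:**
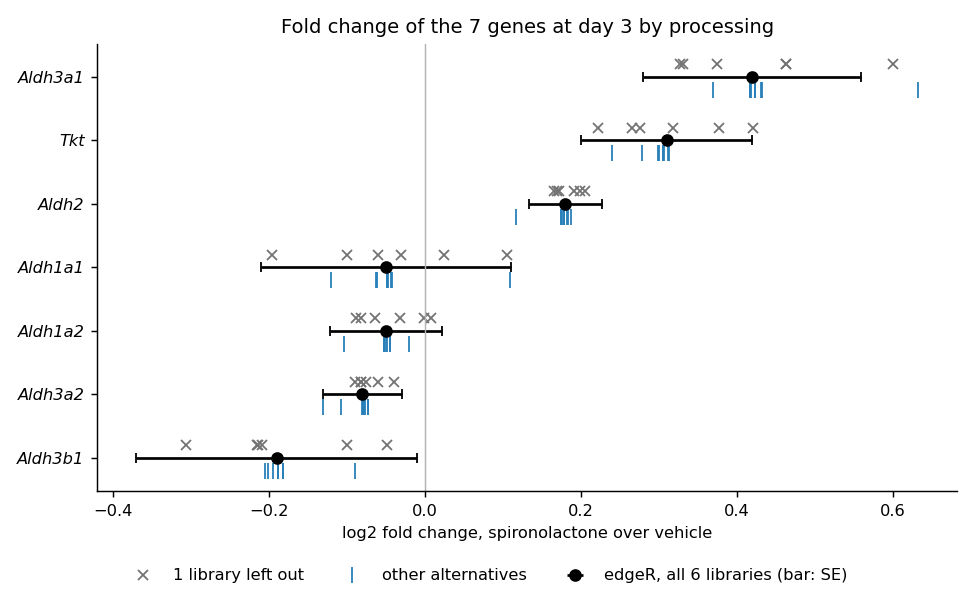
Log2 fold change of spironolactone over vehicle for the 7 genes by edgeR (black points, bars are the SE), with 1 library left out in turn (crosses) and under the other alternatives (ticks). Aldh3a1, Tkt and Aldh2 stay above 0 under all of these, and values of Aldh1a1 and Aldh1a2 fall on both sides of 0.

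The promoters of the retinaldehyde pair are shown because both hold the same 8-base octamer, the word bound by POU-domain factors. The RefSeq promoter table of build GRCr8 held 5 of the 7 genes, all but Aldh3a1 and Aldh2. The word ATGCAAAT was found in the 300-base windows of Aldh1a1 and Aldh1a2 and in no other of the 5, searched on both strands; it was present in 1.78% of 33469 such windows, and was picked after the sequences were seen. The 150 bases before each annotated start follow, with the octamer in capitals, from chr1:227537470-227537619 for Aldh1a1 and chr8:80758491-80758640 for Aldh1a2, both on the plus strand of GRCr8.
Aldh1a1: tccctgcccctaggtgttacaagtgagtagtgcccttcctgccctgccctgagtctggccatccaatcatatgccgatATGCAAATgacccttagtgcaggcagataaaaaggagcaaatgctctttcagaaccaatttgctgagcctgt
Aldh1a2: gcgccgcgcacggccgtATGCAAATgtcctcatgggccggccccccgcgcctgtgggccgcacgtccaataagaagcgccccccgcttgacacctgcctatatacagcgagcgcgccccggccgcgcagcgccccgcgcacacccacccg
The octamer began 72 bases before the start of Aldh1a1 and 133 bases before that of Aldh1a2. The word CCAAT was found in the windows of Aldh1a1, Aldh1a2 and Aldh3a2 (in 37.5% of all windows), and the core GCGTG of the xenobiotic response element in the windows of Aldh1a2 and Aldh3a2 (in 29.7% of all). The antioxidant response core TGACNNNGC was found in that of Aldh1a2 alone among the 5 (in 12.1% of all). TATAAA was found in the window of Tkt on the minus strand (in 14.2% of all). These matches describe letters and not binding sites.

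Among the other aldehyde dehydrogenase genes, 10 of the 15 listed were tested and none passed edgeR's test (0.00% of all genes). At an unadjusted p under 0.05 there were 4 higher and 0 lower (12.2% and 10.4% of all genes). DESeq2 called 2 higher, where it called 5.81% of all genes higher, and the median log2 fold change was -0.01, that of all genes. The 3 with the smallest p were Aldh1l1, Aldh9a1 and Aldh1a3. Aldh1a3, the third retinaldehyde dehydrogenase gene, had 127.8, 101.5 and 95.4 CPM in spironolactone replicates 1 to 3, against 69.4, 83.7 and 88.0 CPM in vehicle replicates 1 to 3. Its groups did not overlap, and its log2 fold change was 0.43 (SE 0.14, adjusted p = 0.138 by edgeR and 0.0297 by DESeq2). Summed over Aldh1a1, Aldh1a2 and Aldh1a3, levels ran from 121.9 to 152.0 TPM with spironolactone and from 130.3 to 140.3 TPM with vehicle, and overlapped. Aldh9a1, whose enzyme oxidizes aminoaldehydes, had a log2 fold change of 0.23 (103.4 ± 6.4 CPM in spironolactone and 87.9 ± 4.31 CPM in vehicle libraries), and that of the folate enzyme gene Aldh1l1 was 0.70 (3.3 ± 0.336 CPM in spironolactone and 2.03 ± 0.269 CPM in vehicle libraries; SD, n = 3 each). Their adjusted p were 0.107 and 0.0973 by edgeR.

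Transketolase works in the pentose phosphate pathway, of which 10 of 13 listed genes other than Tkt were tested. None passed edgeR's test. At an unadjusted p under 0.05 there were 3 higher and 1 lower, where 12.2% of all genes were higher and 10.4% lower, and DESeq2 called 3 higher (5.81% of all genes). Taldo1, the gene of transaldolase, the partner of transketolase in the non-oxidative branch, had 336.5, 320.2 and 286.2 CPM in the spironolactone libraries, against 241.2, 254.5 and 271.8 CPM in the vehicle libraries. Its groups did not overlap.

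The log2 fold change of Taldo1 was 0.30 (SE 0.077, adjusted p = 0.0961), beside 0.31 for Tkt. H6pd, the gene of an enzyme of the endoplasmic reticulum that makes NADPH, had 0.24 (adjusted p = 0.0743), and Prps1, a phosphoribosyl pyrophosphate synthetase gene downstream of the pathway, had -0.19 (adjusted p = 0.166). The median over the 10 genes was 0.10, against -0.01 over all genes. Without the replicates 3 of both treatments Taldo1 alone of the 10 passed, in a fit that called 7.02% of all genes. Those replicates held its lowest spironolactone and highest vehicle value, so leaving them out widened the difference.

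The retinoid genes, which act before and after the retinaldehyde dehydrogenases, went both ways. Of 24 listed genes 23 were tested and none passed edgeR's test, with 4 higher and 4 lower at an unadjusted p under 0.05 (12.2% and 10.4% of all genes) and a median log2 fold change of 0.04. DESeq2 called 3 higher and 1 lower, where it called 5.81% of all genes higher and 3.44% lower. Higher were the values of the receptor genes Rarg, at 0.36 (adjusted p = 0.0765), and Rxra, at 0.50 (adjusted p = 0.0811), and of Dhrs3, which encodes a reductase of retinaldehyde, at 0.32 (adjusted p = 0.109). Lrat, the gene of the enzyme that esterifies retinol, had 41.7, 42.7 and 39.9 CPM in spironolactone replicates 1 to 3, against 82.2, 88.5 and 50.2 CPM in vehicle replicates 1 to 3, which gave a log2 difference of -0.83 (SE 0.21; adjusted p = 0.0984 by edgeR, 0.000848 by DESeq2). For the retinol-binding protein gene Rbp4 the fit gave -0.42 on the log2 scale (adjusted p = 0.135). Vehicle replicate 3 had the lowest Lrat and the highest Rarg of its group, so leaving it out widened both differences. In that fit Rarg and Lrat were the 2 of 23 that passed, where 5.27% of all genes did.

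Among 18 genes of other aldehyde and alcohol metabolism 13 were tested and none passed, with 6 higher and 1 lower at an unadjusted p under 0.05 (12.2% and 10.4% of all genes) and a median log2 fold change of 0.20. Gsta4, the gene of a glutathione transferase that conjugates 4-hydroxynonenal, a lipid aldehyde that ALDH3A1 also clears, had 59.5, 59.1 and 50.8 CPM in spironolactone replicates 1 to 3, against 37.3, 38.7 and 42.3 CPM in vehicle replicates 1 to 3. All spironolactone values lay above all vehicle values, and the log2 fold change was 0.52 (SE 0.083; adjusted p = 0.0649 by edgeR and 7.13e-05 by DESeq2). The catalase gene Cat had 0.31 (adjusted p = 0.0768) and the aldo-keto reductase gene Akr1b10 0.37 (adjusted p = 0.136). Akr1b1, the gene of aldose reductase, averaged 103.8 ± 2.46 CPM in spironolactone and 124.2 ± 8.62 CPM in vehicle libraries (SD, n = 3 each; log2 fold change -0.26, adjusted p = 0.086). Vehicle replicate 3 had the highest Gsta4 and Cat and the lowest Akr1b1 of its group, so leaving it out widened all 3 differences. In that fit Gsta4, Cat and Akr1b1 passed, where 5.27% of all genes did. DESeq2 on all 6 libraries called these same 3, where it called 9.25% of all genes.

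In liver Aldh3a1 is known as a target of the aryl hydrocarbon receptor. Of 10 genes of that receptor's list 7 were tested and none passed edgeR's test. The quinone reductase gene Nqo1 alone had an unadjusted p under 0.05, where 12.2% of all genes were higher and 10.4% lower. It was higher, at 0.37 (log2 fold change; SE 0.10, adjusted p = 0.103 by edgeR and 0.0227 by DESeq2). DESeq2 called Nqo1 alone of this list, where it called 5.81% of all genes higher. Cyp1a1, the most widely used target gene, named outside the rule, did not pass the filter, at means of 0.0656 CPM (spironolactone) and 0.029 CPM (vehicle). Such a low listed value need not show a low transcript level, as described below for Tpi1. The receptor gene Ahr itself, also named after its values were seen, gave 0.06 on that scale (adjusted p = 0.702).

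Of 10 other abundant soluble proteins of cornea 9 genes were tested, with 7 higher and 0 lower at an unadjusted p under 0.05 (12.2% and 10.4% of all genes), a median log2 fold change of 0.24 and none past edgeR's test. DESeq2 called 3 higher, where it called 5.81% of all genes higher. Those 3 were also the ones with the smallest p: the annexin gene Anxa2 with 0.45 (SE 0.078, adjusted p = 0.0649), the enolase gene Eno1 with 0.34 (SE 0.099, adjusted p = 0.114) and the lactate dehydrogenase gene Ldha with 0.26 (SE 0.088, adjusted p = 0.148). Eno1 had 1123.9, 1317.8 and 1439.5 CPM in spironolactone replicates 1 to 3, against 1086.8, 965.6 and 1005.0 CPM in vehicle replicates 1 to 3. Its groups did not overlap, and spironolactone replicate 1 was the lowest of its group, as for Tkt. Beside all these lists, the 14 epithelium markers had a median log2 fold change of 0.56 and none past edgeR's test. At an unadjusted p under 0.05, 11 were higher (12.2% of all genes), and DESeq2 called 9 higher (5.81% of all genes). In the fits that called Aldh3a1, 8 of the 14 passed without vehicle replicate 3 (5.27% of all genes) and 10 of the 14 without the replicates 3 of both treatments (7.02% of all genes), all higher. The conjunctival and goblet cell markers, of which 6 were tested, had a median of 0.51, nearly as high. Of these, 4 were higher at an unadjusted p under 0.05 (12.2% of all genes), and DESeq2 called 4 higher (5.81% of all genes). In the same 2 fits with libraries left out, 4 of these 6 passed as well, all higher (5.27% and 7.02% of all genes). Both fits leave out vehicle replicate 3, which had the highest median level of its group for both marker lists.

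**Figure D5:**
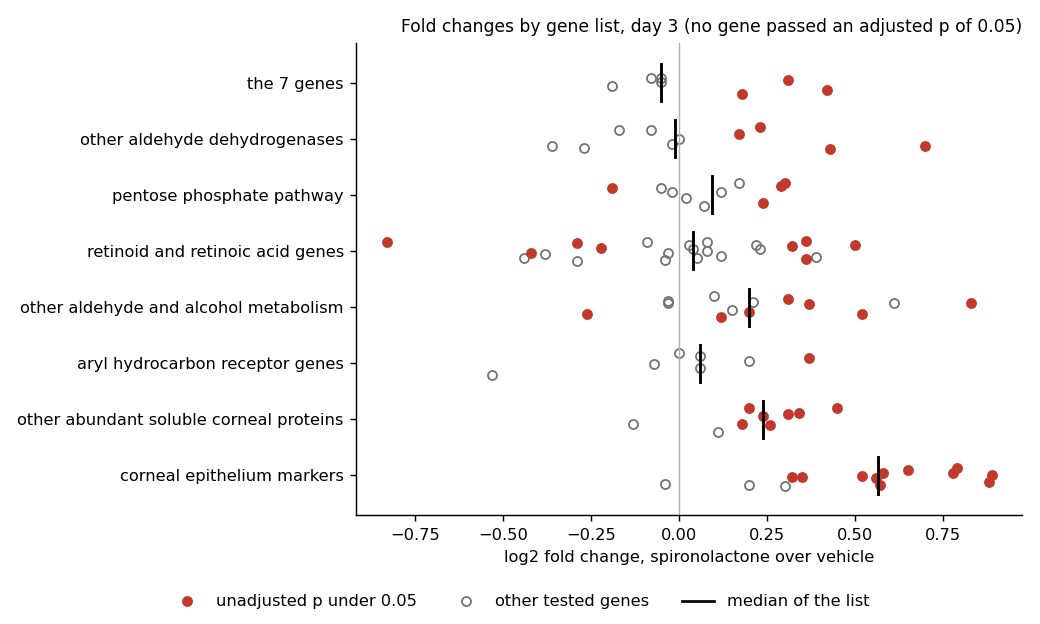
Log2 fold change of spironolactone over vehicle at day 3 for the tested genes of each list (points; filled where the unadjusted p was under 0.05), with the median of each list as a black bar. The 7 genes split into 3 above and 4 below 0, and the epithelium markers have the highest of the medians drawn, 0.56. Conjunctival markers, with a median of 0.51, are not drawn.

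Genes whose values went most closely with those of Aldh3a1, Aldh1a1 and Tkt were found as the smallest root mean square difference of mean-centred log2 CPM over the 6 libraries, among 10203 genes of at least 10 CPM on average. For Aldh3a1 these were Ccdc17 (difference 0.0468), the BMP antagonist gene Grem1 (0.0508) and RGD1559575 (0.0724), where Aldh3a1 itself varied by 0.277 around its mean. For Tkt they were Dbi, which encodes an acyl-CoA-binding protein (0.0232), Fdps, the farnesyl diphosphate synthase gene (0.0326), and the pyruvate dehydrogenase kinase gene Pdk1 (0.0341), where Tkt itself varied by 0.205. For Aldh1a1 they were Igsf9 (0.0596), Klhdc8b (0.0612) and Lhx2, a homeobox gene of eye development (0.0667), where Aldh1a1 itself varied by 0.196. The difference between Aldh3a1 and Tkt was 0.249, and that between Tkt and Aldh2 was 0.131, which placed Aldh2 at 902 of 10203 genes. With 6 libraries, which share depth and tissue makeup, this likeness describes the libraries only.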

How the data were processed

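Estimated counts and TPM per gene were deposited by the authors for each library in the column layout of RSEM gene results, per the file headers. The deposited estimated (expected) counts need not be whole; at least 99.5% were within 0.005 of a whole number, and all were rounded for testing. The deposited TPM are scaled by effective length, also given in the files. Per the submitters' processing notes the tools were RSEM 1.2.28, STAR 2.5.3a, Picard, DRAGEN, fastp, FastQC, edgeR 3.28.0 and DESeq2 1.26.0, and the builds Rnor_6.0 and rn6; no roles are stated. The strand setting of the counting is not stated, and close family members may share reads.

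The row that names no gene (0.12% to 0.181% of counts) was left out. edgeR 4.0.16 (R 4.3.3) filtered genes by expression (minimum count 10), scaled by TMM and gave robust quasi-likelihood tests with Benjamini-Hochberg adjustment over all 14762 genes at 0.05. SE is the log2 fold change over the square root of F. CPM are counts per 1000000 after TMM scaling. Libraries of a group differed by more than sampling noise (chi-square per gene 7.62 to 22.8 over 6 pairs).

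Alternatives were DESeq2 1.42.0 (no adjusted p for 4382 of 18807 genes), limma-voom and limma on log2(TPM + 1) (limma 3.58.1), RLE size factors, no filter, 1 CPM in 3 libraries, effective-length offsets, the replicate number as a block, and libraries left out. The tests were also run on simulated counts with changes of 2-fold and 1.5-fold, larger than those of the 7 genes (1.34-fold for Aldh3a1). Such a run does not show how they do with changes this small. The 7 genes and the 17 gene lists, matched by exact symbol, were chosen with earlier results of these data known. Named are, per list, up to 3 genes per direction with the smallest unadjusted p under 0.05, the 3 closest patterns of 3 genes, and the 2 most abundant genes of marker lists, with Krt12 fixed; some of these are not reported here; other names are said to be so. Day 7 libraries, listed by gene ID alone, were not analysed here.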

Additional observations from a re-analysis of the deposited data

How the results depend on the processing

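Aldh3a1, Tkt, Aldh2, Aldh3a2 and Aldh3b1 kept the sign of their log2 fold change under all 15 alternatives run. Aldh3a1 had an adjusted p from 0.0215 to 0.410 and passed under 3 of them: DESeq2 (0.424), without vehicle replicate 3 (0.601) and without the replicates 3 of both treatments (0.633). Aldh2 passed with DESeq2 alone (0.183). The log2 fold change of Aldh1a1 was positive without spironolactone replicate 3 (0.105), without vehicle replicate 1 (0.024) and without the replicates 3 of both treatments (0.109), and that of Aldh1a2 was 0.008 without vehicle replicate 3; the cause was not tested. With 1 library left out, log2 fold changes ran from 0.327 to 0.601 for Aldh3a1, 0.222 to 0.421 for Tkt, 0.166 to 0.206 for Aldh2, -0.196 to 0.105 for Aldh1a1, -0.088 to 0.008 for Aldh1a2, -0.09 to -0.04 for Aldh3a2 and -0.307 to -0.048 for Aldh3b1. The count of genes past the threshold was 148 with no filter, 1334 with DESeq2, 1040 without the replicates 3 of both treatments and 0 to 781 with 1 library left out (781 without vehicle replicate 3, 40 without vehicle replicate 1, 2 without spironolactone replicate 3). With the replicate number as a block edgeR called 0 genes, and Aldh3a1 had a log2 fold change of 0.431; deviations of same-numbered libraries correlated at 0.0898, -0.0845 and 0.0486, so the numbers were not taken as pairs. The order of the 7 genes by level was the same with CPM per effective length. With 3 libraries per group, even Aldh3a1, with a log2 fold change of 0.42 against an SE of 0.14, did not pass edgeR's test. Differences well beyond the SE of Aldh1a1 or Aldh3b1 could therefore also have gone undetected.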

Other observations

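The genes below were named after their values were seen. Ptgr1, the gene of an enzyme that reduces unsaturated aldehydes and ketones, had 682.7, 1239.5 and 1089.8 CPM in spironolactone replicates 1 to 3, against 521.4, 464.5 and 711.7 CPM in vehicle replicates 1 to 3. At a mean of 1393 TPM with spironolactone and 817 TPM with vehicle it exceeded both Tkt and Aldh3a1 per length. Its groups overlapped through spironolactone replicate 1, and the fit gave 0.83 on the log2 scale (SE 0.26; adjusted p = 0.152 by edgeR, 0.0643 by DESeq2).

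Aldh18a1, the gene of an enzyme of proline synthesis, was listed at 0 in all 6 libraries. Tpi1, a glycolysis gene that all cells use, was listed at only 0.123 TPM with spironolactone and 0.103 TPM with vehicle, so a very low listed value in these tables need not show a low transcript level.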
